A study of Zea mays with 12 samples.

Results

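The maize ear regulators fea2, zfl1, ids1, bd1, ub2 and BA1 (6 genes) were followed in immature ears of 4 genotypes. They were chosen by name as every probe set that the platform's probe annotation pairs with one of these 6 genes. This gave 7 probe sets of the 17621 on the array that are not controls: 1 for each of 5 genes (fea2, Zm.1097.1.S1_at; ids1, Zm.366.1.S1_at; bd1, Zm.13383.1.S1_at; ub2, Zm.14450.1.A1_at; BA1, Zm.18382.1.S1_at) and 2 for zfl1 (Zm.14530.1.A1_at and Zm.6788.1.A1_at). A probe set is the group of oligonucleotides on the array that together report 1 signal for a transcript. Genome positions are not given, because the deposited values name no genome build.

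The genotypes were 2 inbred lines, B73 and Mo17, and both hybrids between them, B73xMo17 and Mo17xB73, where the seed parent is written first by maize convention. All were field-grown, and no group received a treatment. Each genotype had 3 biological replicates, each a pool of 6 ears between 3.7 and 5.4 mm long without husk and silk, and each replicate had its own Affymetrix maize array, 12 arrays in all. The design asks how inbred differences appear in the hybrids, so that the comparisons are B73 with Mo17, the hybrids with the midparent (the mean of both parents) and with each parent, and the hybrids with each other.

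At this stage the ear is an inflorescence meristem that lays down rows of spikelet pair meristems, which become spikelet meristems and then floral meristems. The CLAVATA pathway, in which receptors such as FEA2 restrain stem cell proliferation, sets the size of the inflorescence meristem, and loss of fea2 gives broad, fasciated ears with extra kernel rows. BA1 is needed to start axillary meristems, ub2 restrains the formation of lateral primordia, bd1 and ids1 fix the fate and determinacy of the spikelet meristem, and zfl1 gives floral meristems their identity.

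All 7 probe sets were above the filter on dim signals, and none was at the floor on any array. The arrays differed in brightness, with medians as deposited from 123 (Mo17 replicate 1) to 231 (B73 replicate 2), so signals below are scaled to a common median over the probe sets tested, in arbitrary units, and results on the unscaled values are given as deposited. Among the 11126 probe sets tested, B73 was above Mo17 by a median of 0.28 on the log2 scale without scaling, and the median difference was -0.05 with it. Of the ear markers kn1, zap1 and zag1, 3 of 3 were above the filter. Of 11 endosperm probe sets 2 were above it (a zp27 probe set and bt2), with wx1 and fl2 at the floor on all arrays. Of 5 profilin probe sets listed for pollen and anther 2 were above it, pro4 and pro5, while those of pro1, pro2 and pro3 were not. Whether pro4 and pro5 mark pollen here was not tested. Green-tissue probe sets were above it in 8 of 10 cases, with a summed signal of 1367 to 2017 in B73, 1917 to 2060 in Mo17, 1637 to 1982 in B73xMo17 and 1729 to 1806 in Mo17xB73.

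The ratio of the highest to the lowest of the 4 genotype means was 1.20 for fea2, 1.21 for BA1, 1.23 for ids1, 1.26 for ub2, 1.43 for Zm.14530.1.A1_at of zfl1, 1.53 for bd1 and 1.72 for Zm.6788.1.A1_at of zfl1. Replicates of a genotype differed by a mean coefficient of variation (SD over mean) of 7.44% for Zm.14530.1.A1_at, 9.11% for fea2, 9.48% for ub2, 15.1% for ids1, 15.5% for BA1, 18.6% for Zm.6788.1.A1_at and 22.5% for bd1. In the order of genotype means of each probe set, 0 of the 21 pairs of neighbours passed in limma (lowest adjusted p = 0.0755; 1 pair at an unadjusted p under 0.05), so no genotype was shown to differ from the next in order beyond the spread of its replicates.

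**Figure D1:**
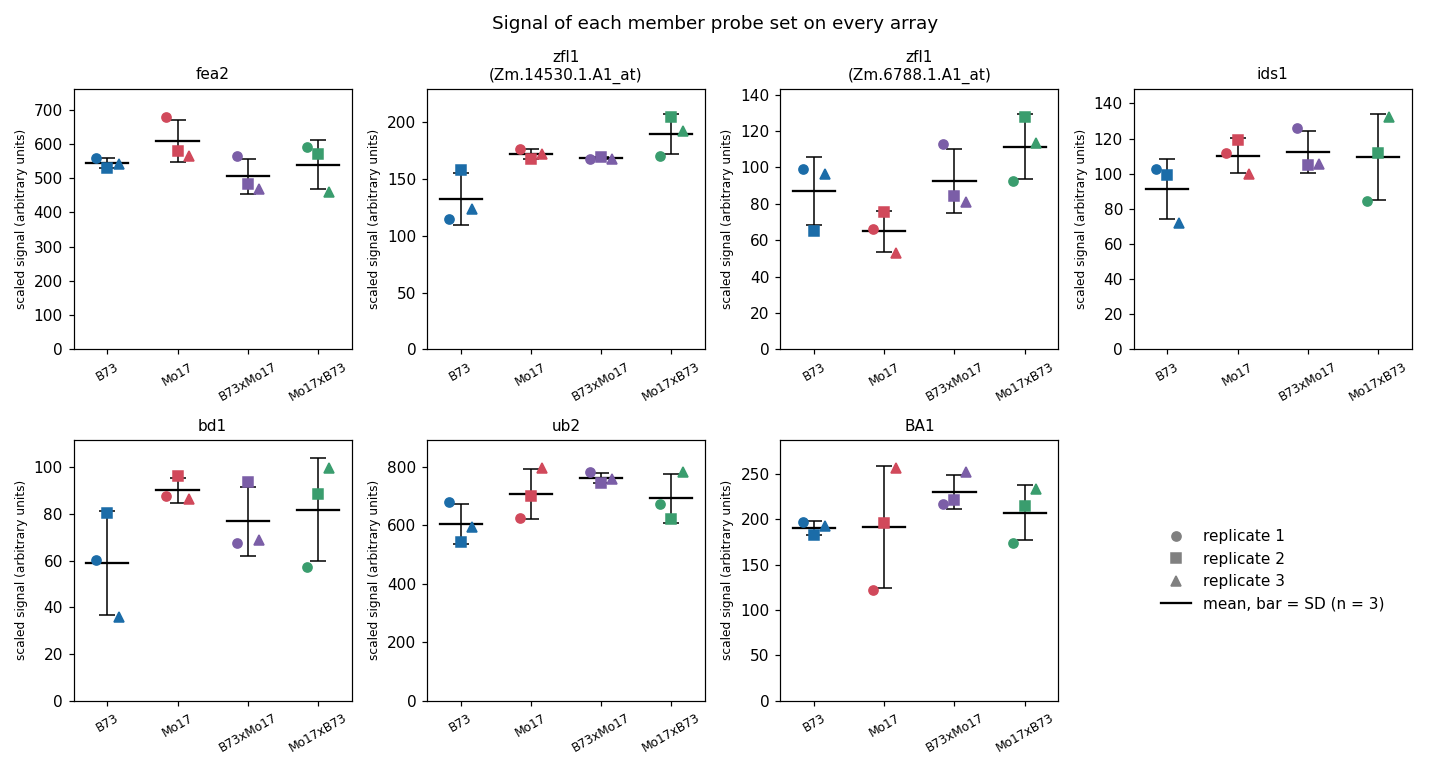
Scaled signal (arbitrary units, axis from 0) of the 7 probe sets on each of the 12 arrays, by genotype. Symbols mark replicates 1 to 3, and black lines and bars are the mean and SD of 3 arrays. B73 is the lowest group for Zm.14530.1.A1_at of zfl1 (115 to 158) and Mo17 the lowest for Zm.6788.1.A1_at (52.9 to 75.5), and B73 (65.3 to 99.3) reaches into its range. Each of the other panels has at least 1 pair of genotypes without overlap and others that overlap.

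Among the meristem size genes, fea2 encodes a leucine-rich repeat receptor-like protein of the CLAVATA pathway. Its scaled signal was 559, 531 and 539.9 on the B73 arrays, 679.6, 579 and 566 on the Mo17 arrays, 565, 482 and 468 in B73xMo17 and 590.5, 569.7 and 458 in Mo17xB73. The B73 arrays lay just below the Mo17 arrays without overlap, and both hybrids reached below B73. The B73 minus Mo17 difference was -0.16 ± 0.11 on the log2 scale (SE; adjusted p = 0.281 in limma) after scaling and 0.17 as deposited (adjusted p = 0.636), so its sign depended on the scaling. It was the only one of the 7 probe sets whose mean hybrid lay below the midparent (-0.15 ± 0.08, 95% interval -0.32 to 0.02, adjusted p = 0.47), and 5 of 6 hybrid arrays were below the midparent signal of 575. Against Mo17 the hybrids differed by -0.22 ± 0.10 (unadjusted p = 0.037, adjusted p = 0.11).

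BA1, encoding a basic helix-loop-helix protein, had scaled signals of 197, 182 and 192 in B73, 122, 196 and 257 in Mo17, 217, 221 and 252 in B73xMo17 and 174, 215 and 233 in Mo17xB73. The Mo17 arrays spanned the whole range of the other genotypes, from the lowest to the highest of the 12, with a coefficient of variation of 35.1% against 3.89% in B73. The means of B73 (190.3 ± 7.40, SD, n = 3) and Mo17 (192 ± 67.4) were alike, and their log2 difference was 0.05 ± 0.21 (95% interval -0.39 to 0.50, adjusted p = 0.862). Without Mo17 replicate 1 this difference was -0.24 (adjusted p = 0.227). Hybrid arrays were above the midparent signal of 187 in 5 of 6 cases, by 0.22 ± 0.15 on the log2 scale for the mean hybrid (adjusted p = 0.571).

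Of the gene that restrains lateral primordia, the SBP-box factor gene ub2, scaled signals were 678, 542 and 594 in B73, 624, 701 and 796 in Mo17, 781, 745 and 757 in B73xMo17 and 673, 619.7 and 782 in Mo17xB73. B73xMo17 was the tightest group and lay above every B73 array, while the other groups overlapped with B73. The log2 difference was -0.34 ± 0.11 for B73 minus B73xMo17 (adjusted p = 0.0642), 0.27 ± 0.10 for the mean hybrid minus B73 (adjusted p = 0.0757) and -0.22 ± 0.11 for B73 minus Mo17 (adjusted p = 0.13). Without B73 replicate 1 the mean hybrid minus B73 difference was 0.35 (adjusted p = 0.045). Without Mo17 replicate 1 it was 0.27 and passed (adjusted p just under 0.05), and B73 minus Mo17 was -0.31 (adjusted p = 0.0482). As deposited the mean hybrid minus B73 difference was 0.01 and B73 minus Mo17 was 0.11 (adjusted p = 0.971 and 0.774).

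The spikelet gene bd1 encodes an ERF-type transcription factor without which the ear makes branches in place of spikelets. Its scaled signal was 60.0, 80.4 and 35.9 in B73, 87.7, 96.2 and 86.5 in Mo17, 67.6, 93.8 and 68.7 in B73xMo17 and 57.2, 88.3 and 99.6 in Mo17xB73. Every B73 array was below every Mo17 array, the Mo17 arrays were close together, and the hybrids ran from within the B73 range to above the Mo17 range. After scaling this was the largest B73 minus Mo17 difference of the 7 probe sets, -0.69 ± 0.28 on the log2 scale (95% interval -1.30 to -0.09). The largest as deposited was that of Zm.6788.1.A1_at of zfl1 (0.75, adjusted p = 0.0582 in limma). The bd1 difference was also the one with the widest error, and it missed the threshold (unadjusted p = 0.0281, adjusted p = 0.0649). Without B73 replicate 2, the highest of the B73 arrays, it was -0.95 (adjusted p = 0.0143), without B73 replicate 3, the lowest, -0.37 (adjusted p = 0.274), without Mo17xB73 replicate 1 -0.69 (adjusted p = 0.0473), with quantile normalization -0.80 (adjusted p = 0.0242) and as deposited -0.36 (adjusted p = 0.44). It was also smaller, -0.15 (adjusted p = 0.264), with the floor at the 40th percentile of the arrays; bd1 is a dim probe set, with a median percentile of 39.2. Against the midparent signal of 72.9 the mean hybrid differed by 0.09 ± 0.20 (adjusted p = 0.893), with 3 of 6 hybrid arrays above it.

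For ids1, an AP2-type gene that limits the spikelet meristem to a fixed number of florets, scaled signals were 103, 99.0 and 71.9 in B73, 112, 119 and 99.6 in Mo17, 126, 105 and 106 in B73xMo17 and 84.2, 112 and 133 in Mo17xB73. Only B73 and B73xMo17 failed to overlap among the groups compared with B73, and the Mo17xB73 arrays ran from near the bottom to the top of the range. B73 replicate 3 gave the lowest of the 12 scaled signals both for ids1 and for bd1, and Mo17xB73 replicate 3 the highest of both. These extremes depended on the scaling. The highest as deposited was B73 replicate 2 for both (133.6 and 108.4). The lowest was Mo17xB73 replicate 1 for ids1 (73.7) and B73 replicate 3 for bd1 (45.3). The B73 minus Mo17 difference was -0.29 ± 0.19 (95% interval -0.69 to 0.12, adjusted p = 0.249) after scaling and 0.05 as deposited (adjusted p = 0.922). The mean hybrid was not shown to differ from either parent. Its difference from Mo17 had a 95% interval from -0.36 to 0.35. Its difference from B73 was 0.28 ± 0.16 (adjusted p = 0.261 in limma) after scaling and 0.03 as deposited (adjusted p = 0.937).

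The floral identity gene zfl1, which encodes a FLORICAULA/LEAFY-type transcription factor, was the one gene of the 6 with calls after scaling, and its 2 probe sets did not show the same order of genotypes. With Zm.14530.1.A1_at, scaled signals were 115, 158 and 124 in B73, 176, 167 and 172 in Mo17, 168, 169 and 168 in B73xMo17 and 170.1, 205 and 193 in Mo17xB73. All 9 arrays of the other genotypes were above the 3 B73 arrays, and the Mo17 and B73xMo17 arrays lay within a narrow band. The signal was lower in B73 than in Mo17 by 0.39 ± 0.13 on the log2 scale (B73 minus Mo17 -0.39, SE 0.13, adjusted p = 0.0231 in limma), and the mean hybrid was higher than B73 by 0.45 ± 0.11 (adjusted p = 0.0108). The mean hybrid and Mo17 differed by 0.05 ± 0.11 (95% interval -0.18 to 0.29, adjusted p = 0.781).

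These calls depended on the scaling. As deposited the B73 minus Mo17 difference was -0.06 (adjusted p = 0.884) and the mean hybrid minus B73 difference 0.19 (adjusted p = 0.581), neither of which passed, while with quantile normalization both passed (-0.46, adjusted p = 0.0042, and 0.44, adjusted p = 0.00494). With 1 array left out the parental difference kept its sign and ran from -0.53 (without B73 replicate 2, adjusted p = 0.00196 in limma) to -0.30. The mean hybrid minus B73 difference ran from 0.35 to 0.58. Some of these runs missed the threshold. Between the parents the difference was -0.30, -0.35, -0.37 and -0.39 without B73 replicate 1, B73 replicate 3, Mo17 replicate 1 or Mo17 replicate 3 (adjusted p = 0.1, 0.0738, 0.057 and 0.053), and -0.39 on the inbred arrays alone (adjusted p = 0.077). Between hybrids and B73 it was 0.35 without B73 replicate 1 and 0.41 without B73 replicate 3 (adjusted p = 0.0685 and 0.0538). The summed scaled signal of the ear markers kn1, zap1 and zag1 was also lowest in B73. It was 2587 to 3296 on the B73 arrays, 3959 to 4581 on the Mo17 arrays, 3403 to 3572 in B73xMo17 and 3701 to 3996 in Mo17xB73. Within the list zag1 went the other way (402 ± 56.4, SD, n = 3, in B73 and 254 ± 91.1 in Mo17). As deposited, zag1 passed between the parents in limma (1.05, adjusted p = 0.000219), while kn1 and zap1 did not (adjusted p = 0.206 and 0.554). The other zfl1 probe set, described below, was lowest in Mo17 and not in B73. The part of these markers in the zfl1 result was not tested. In pooled whole ears, fewer cells of a type and less RNA per cell cannot be told apart.

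With Zm.6788.1.A1_at, zfl1 had scaled signals of 99.3, 65.3 and 96.4 in B73, 66.1, 75.5 and 52.9 in Mo17, 113, 84.1 and 81.0 in B73xMo17 and 92.4, 128 and 114 in Mo17xB73. Here Mo17 was the low group: all 6 hybrid arrays were above all 3 Mo17 arrays, and B73 replicate 2 was the single B73 array within the Mo17 range. The mean hybrid was higher than Mo17 by 0.65 ± 0.19 on the log2 scale (adjusted p = 0.0202) after scaling. That call was lost as deposited (0.73, adjusted p = 0.0577), with quantile normalization (0.49, adjusted p = 0.122), with a floor at the 40th percentile (0.31, adjusted p = 0.0983), with no filter (adjusted p = 0.0536) and without Mo17 replicate 3 (0.51, adjusted p = 0.104). B73 minus Mo17 was 0.41 ± 0.21 (95% interval -0.05 to 0.88, adjusted p = 0.144), the opposite sign to the other probe set. It was 0.61 without B73 replicate 2 (adjusted p = 0.0338). The value as deposited was 0.75 (adjusted p = 0.0582 in limma), and there the B73 and Mo17 arrays did not overlap.

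The pair of probe sets was then compared within each array, a test added after their values were seen. The log2 difference Zm.14530.1.A1_at minus Zm.6788.1.A1_at was 0.21, 1.28 and 0.36 in B73, 1.42, 1.15 and 1.70 in Mo17, 0.57, 1.01 and 1.05 in B73xMo17 and 0.88, 0.68 and 0.76 in Mo17xB73. B73 replicate 2 stood with the Mo17 arrays, and the other B73 arrays were the lowest of the 12. Genotype held 52.9% of the sum of squares of this difference, which did not pass a permutation test over the 12 arrays (p = 0.105, 100000 resamples). For B73 against Mo17 (means 0.61 and 1.42) the exact two-sided permutation test over 6 arrays gave p = 0.2, but with 3 arrays a genotype it could not reach the threshold, since the smallest p the design allows is 0.1. A close duplicate gene, zfl2, is known in maize; which copy each probe set reports was not tested.

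**Figure D2:**
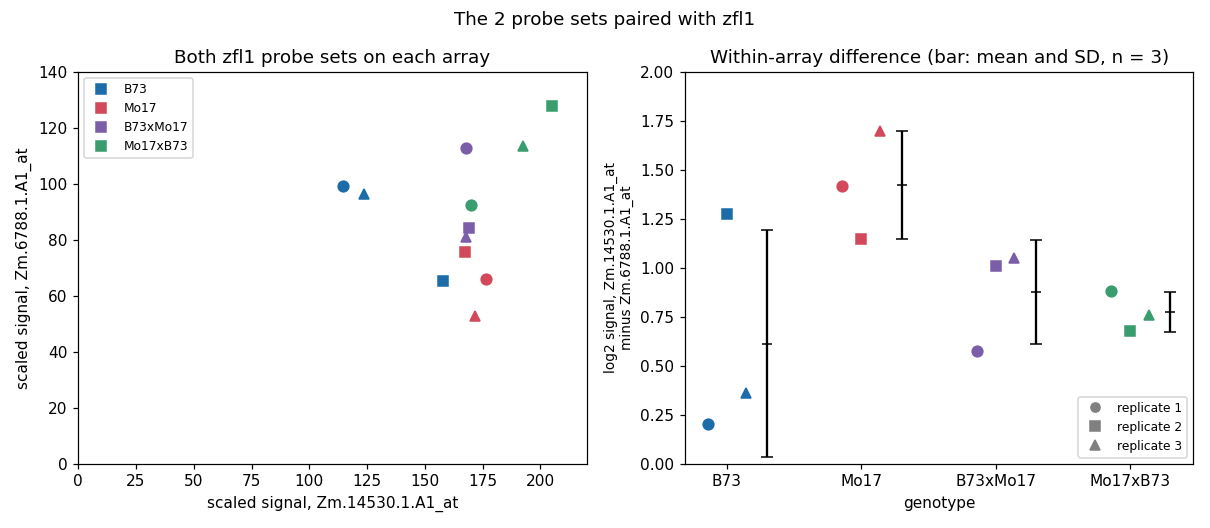
Left, scaled signal of the 2 zfl1 probe sets on each of the 12 arrays (colours, genotypes; symbols, replicates as on the right). Right, their within-array log2 difference by genotype, with the mean and SD of 3 arrays beside the points. Mo17 arrays lie between 1.15 and 1.70, B73 replicate 2 at 1.28 lies among them, and the other B73 arrays lie at 0.21 and 0.36.

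Over the 7 probe sets, 1 passed between B73 and Mo17 after scaling (Zm.14530.1.A1_at of zfl1, lower in B73), where 41% of all 11126 probe sets passed. As deposited 0 of 7 passed, against 25.6% of all, while 2 of 7 after scaling had an unadjusted p under 0.05 (zfl1 and bd1), beside 48.4% of all. With any 1 array left out, 0 to 3 of 7 passed: 0 without B73 replicate 1, B73 replicate 3 or Mo17 replicate 3, and 3 without B73 replicate 2. The share of all probe sets passing was then 36.7% to 41.3%. After scaling, signals of B73 and Mo17 did not overlap for 3 of 7 (fea2, bd1 and Zm.14530.1.A1_at), against 49.4% of all probe sets. All 3 were lower in B73, as were 26.9% of all, while 22.4% of all and none of the 7 were higher. This depended on the scaling: as deposited these 3 overlapped, and only Zm.6788.1.A1_at of zfl1 did not, being higher in B73. The median difference of the members was -0.22 after scaling and 0.11 as deposited, beside -0.05 and 0.28 over all probe sets, so that the members' median lay below that of all probe sets in both. Their median absolute difference was 0.29, near the 0.25 of all probe sets. The share called among the 7 was below the share called on the array after scaling and as deposited. Without B73 replicate 2 it was not (3 of 7, beside 4273 of all 11126). Whether the 7 differ from the array in this share was not tested.

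**Figure D3:**
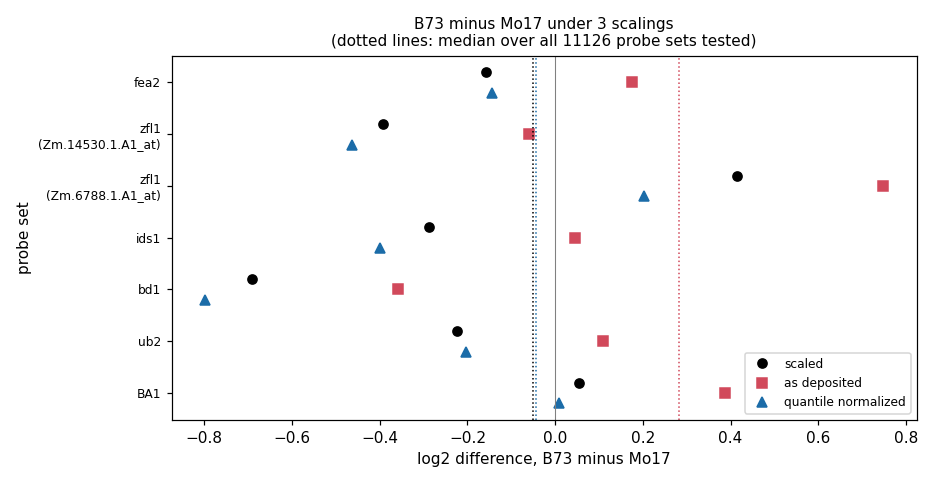
B73 minus Mo17 log2 difference of the 7 probe sets with arrays scaled to a common median (circles), as deposited (squares) and quantile normalized (triangles). Dotted lines give the median of all 11126 probe sets under each (-0.05, 0.28 and -0.04). The values of fea2, ids1 and ub2 are below 0 when scaled and above 0 as deposited, and Zm.14530.1.A1_at and bd1 are below 0 in all 3.

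Against the midparent, 0 of 7 probe sets passed in limma after scaling, where 1.29% of all did, and 0 of 7 as deposited, where 0.782% did. At an unadjusted p under 0.05 there were 2 of 7 after scaling, both of zfl1, beside 13% of all: the mean hybrid was above the midparent by 0.24 ± 0.09 on the log2 scale with Zm.14530.1.A1_at (95% interval 0.04 to 0.43, adjusted p = 0.263) and by 0.43 ± 0.15 with Zm.6788.1.A1_at (0.10 to 0.75, adjusted p = 0.232). For both, 6 of 6 hybrid arrays were above the midparent signals of 151 and 74.8, as for 9.53% of all probe sets. The midparent difference was above 0 for 6 of 7 probe sets after scaling, with a median of 0.15, beside 47.4% of all probe sets and a median of -0.01. As deposited the median of the 7 was 0.07 beside -0.10 over all. Whatever the sign, the median size of the difference after scaling was 0.15 for the 7 and 0.08 for all probe sets. The 7 values share the same parental and hybrid arrays and are not independent of each other.

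The hybrids were also set against each parent. The mean hybrid differed from B73 in 1 of 7 probe sets (19.2% of all) and from Mo17 in 1 of 7 (25.5% of all) after scaling, and from either in 0 of 7 as deposited (12.1% and 11% of all). The median size of the difference, whatever its sign, was 0.27 for the 7 against 0.14 for all probe sets from B73, and 0.21 against 0.16 from Mo17. Arrays did not overlap in 1 of 7 probe sets against B73 (23% of all) and in 1 of 7 against Mo17 (27.2% of all), the zfl1 probe sets named above. Taken singly, Mo17xB73 differed from B73 with Zm.14530.1.A1_at (B73 minus Mo17xB73 -0.53 ± 0.13, adjusted p = 0.0114, and -0.23 as deposited, adjusted p = 0.545), the single call of 7 (15.3% of all) and the single probe set of 7 without overlap (30.7% of all). It differed from Mo17 with Zm.6788.1.A1_at (Mo17 minus Mo17xB73 -0.78 ± 0.21, adjusted p = 0.0188, and -0.82 as deposited, adjusted p = 0.0792), again the single call of 7 (21.1% of all) and the single one without overlap (35.1% of all). B73xMo17 passed against B73 in 0 of 7 (14% of all). After scaling its arrays were all above those of B73 for 4 of 7, Zm.14530.1.A1_at of zfl1, ids1, ub2 and BA1. Of all probe sets, 18.4% were lower in B73 without overlap, and 35% did not overlap either way. The arrays of the 4 named probe sets overlapped as deposited, with B73 minus B73xMo17 differences of -0.15, -0.10, -0.13 and -0.06. Against Mo17, B73xMo17 passed in 0 of 7 (19.7% of all) and did not overlap for 2 of 7 (38.4% of all): fea2, higher in Mo17 (Mo17 minus B73xMo17 0.27 ± 0.11, unadjusted p = 0.0305, adjusted p = 0.112), and Zm.6788.1.A1_at, lower in Mo17 (-0.51 ± 0.21, unadjusted p = 0.0323, adjusted p = 0.117). The arrays of Mo17 and B73xMo17 overlapped as deposited for fea2 and did not for Zm.6788.1.A1_at. Those of the hybrids and B73 overlapped as deposited for Zm.14530.1.A1_at. These comparisons use the same hybrid arrays.

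Between the reciprocal hybrids 0 of 7 probe sets passed in limma after scaling, with 0 at an unadjusted p under 0.05, and 0% of all probe sets passed. As deposited 0 of 7 passed, and 0.0539% of all did. Differences B73xMo17 minus Mo17xB73 ran from -0.27 ± 0.21 (Zm.6788.1.A1_at of zfl1, 95% interval -0.73 to 0.19) to 0.16 ± 0.21 (BA1, -0.29 to 0.60). The narrowest intervals were those of fea2 (-0.33 to 0.15) and ub2 (-0.10 to 0.39) and the widest that of bd1 (-0.67 to 0.54). Arrays did not overlap for 1 of 7 after scaling, Zm.14530.1.A1_at of zfl1, which was lower in B73xMo17, against 9.18% of all. Its arrays overlapped as deposited. The median size of the difference was 0.14 for the 7 and 0.07 for all probe sets.

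**Figure D4:**
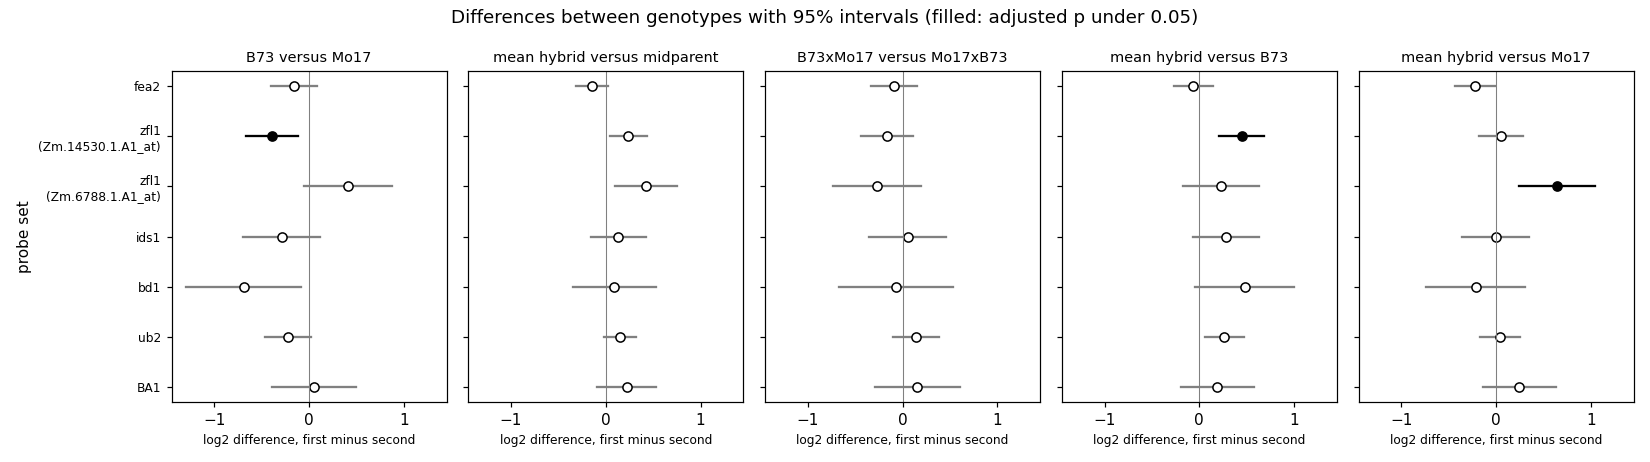
Log2 differences (first minus second genotype named) of the 7 probe sets in 5 comparisons, scaled values, with 95% intervals from limma. Filled points have an adjusted p under 0.05: Zm.14530.1.A1_at of zfl1 between the parents (-0.39) and between hybrids and B73 (0.45), and Zm.6788.1.A1_at of zfl1 between hybrids and Mo17 (0.65).

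Other inflorescence genes gave the setting for these values. Of 25 probe sets of 24 other genes of meristem size, branching, spikelet and floral identity and organ polarity that were above the filter, 10 were higher in B73 than in Mo17, 5 were lower and 10 did not pass after scaling, where 19.5% and 21.5% of all probe sets were higher and lower. As deposited 11 were higher and 2 lower. By list, the counts higher and lower after scaling were 2 and 1 of 3 for meristem size, 1 and 0 of 2 for branching, 5 and 4 of 14 for spikelet and floral identity, and 2 and 0 of 6 for organ polarity. The smallest adjusted p belonged to the bud repressor gt1 (1.65 ± 0.13 on the log2 scale, adjusted p = 1.42e-07), the YABBY gene yab9 (2.39 ± 0.20), the MADS-box genes zag2 (-1.12 ± 0.10), zag3 (0.72 ± 0.07) and zmm8/zmm14 (0.83 ± 0.10, with -0.46 ± 0.58, not passing, at its other probe set), and si1, silky1, a B-class floral gene (-1.19 ± 0.15). Of these 25, 2 passed against the midparent after scaling and 0 as deposited: zag2 (0.43 ± 0.07, adjusted p = 0.011, and 0.40 as deposited, adjusted p = 0.85) and zag3 (0.29 ± 0.05, adjusted p = 0.0139, and 0.16 as deposited, adjusted p = 0.99). In the same list as fea2, the homeobox gene kn1, which maintains the meristem, was at 1468 ± 324 (SD, n = 3) in B73 and 2387 ± 141 in Mo17 (-0.72 ± 0.13, adjusted p = 0.000412, and -0.39 as deposited, adjusted p = 0.206).

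**Figure D5:**
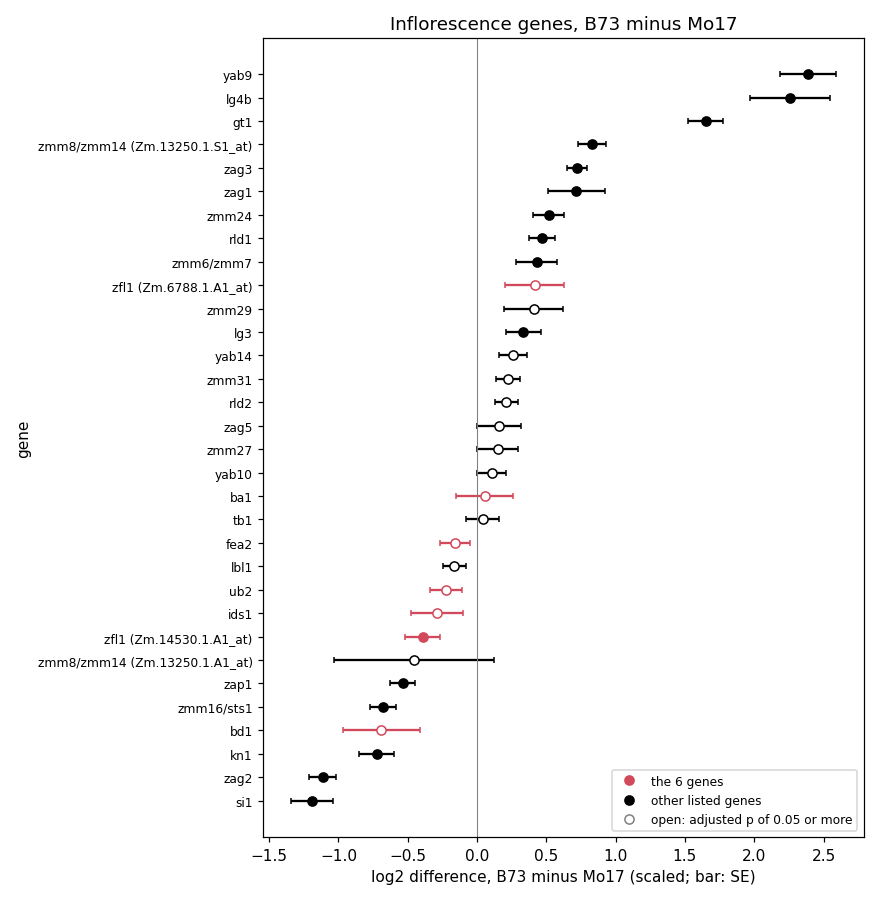
B73 minus Mo17 log2 difference (scaled values, bars SE) of the 7 probe sets of the 6 genes (red) and 25 probe sets of other inflorescence genes (black); filled points have an adjusted p under 0.05. The red points lie between -0.69 (bd1) and 0.41 (Zm.6788.1.A1_at of zfl1), inside the span from si1 (-1.19) to yab9 (2.39).

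The named genes whose pattern was nearest to each gene were found by the root mean square difference of centred log2 values over the 12 arrays, among 810 or 811 probe sets with a usable name. Nearest to fea2 were 2 probe sets of Acc-1, an acetyl-CoA carboxylase gene (0.09 and 0.10), and pglcat8 (0.10). Nearest to ub2 were tif5A (0.07), the DNA methyltransferase gene dmt101 (0.09) and the acidic ribosomal protein gene arpp1a (0.09). Nearest to BA1 were the spindle checkpoint gene mad2 (0.15), mpk2 (0.16) and the response regulator gene RR6 (0.16), and nearest to ids1 were pdh1 (0.14), the wax synthesis gene gl8 (0.15) and pcna1, encoding the sliding clamp of DNA replication (0.16). For bd1 they were cgs1 (0.23), tacs1 (0.24) and the histidine kinase gene hk3 (0.25). For zfl1 they were mir3 (0.11), crr2 (0.11) and tacs1 (0.12) with Zm.14530.1.A1_at, and the tubulin gene tub6 (0.22), PK (0.24) and the alcohol dehydrogenase gene adh1 (0.26) with Zm.6788.1.A1_at, so that the probe sets of zfl1 shared no nearest gene. These distances describe the 12 arrays, are smaller for flatter profiles, and share each array's scaling.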

How the data were processed

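Immature ear RNA of 4 maize genotypes (3 arrays each) was analysed from 1 table. Its values are intensities, given by the authors with MAS5 as 1 linear signal per probe set and array, per the submitters' processing notes; the sources used here do not give its version or scaling target. The number of arrays limits the precision.

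Control probe sets (113) were left out. A probe set was kept if at least 3 arrays had it above that array's 40th percentile (11126). Arrays were scaled to one median over these, signals below 12.2 (median of the arrays' 20th percentiles) were set to that floor, and log2 values were fitted with a mean per genotype in limma 3.58.1, R 4.3.3 (lmFit, eBayes with intensity trend; prior 5.23 and residual 8 degrees of freedom; Benjamini-Hochberg over 11126; pass at adjusted p under 0.05). As deposited, the prior degrees of freedom were infinite. For the midparent, fitted parental signals were averaged on the linear scale and put back on the log2 scale, with a delta-method SE. The procedure was tested on simulated data. Figures were drawn in Python 3.11.15.

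The annotation gives 1 gene for 1452 probe sets; RefSeq (Zm-B73-REFERENCE-NAM-5.0, names only) held 1377 of these. Listed symbols were matched to symbols or synonyms; zmm2, shared by several genes, and ct2, here a catalase synonym, were not used. Genes named are the 6 members, their 3 nearest named probe sets, and up to 6 passing listed genes a comparison, with kn1 added after its values were seen. Members and lists were chosen with earlier results of these data known. The labels give 3 collection days but do not say whether replicate numbers mark them, so arrays were not paired. Alternatives were values as deposited, quantile normalization, other floors, no filter, robust or untrended eBayes, a replicate block, a log2 midparent, inbred arrays alone and each array left out.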

Additional observations from a re-analysis of the deposited data

How the results depend on the processing

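Of the 7 probe sets, 1 passed between B73 and Mo17, 1 between hybrids and B73 and 1 between hybrids and Mo17 after scaling. As deposited, these counts were 0, 0 and 0, and fea2, ids1 and ub2 turned to 0.17, 0.045 and 0.11 (B73 minus Mo17), BA1 and Zm.6788.1.A1_at of zfl1 to -0.061 and -0.020 (hybrid minus B73), ids1 to 0.076 (hybrid minus Mo17) and bd1 to 0.013 (B73xMo17 minus Mo17xB73). With quantile normalization 2 passed between the parents and 0 between hybrids and Mo17, and bd1 turned to -0.013 against the midparent and Zm.14530.1.A1_at of zfl1 to -0.019 against Mo17. On the inbred arrays alone 0 passed between the parents, with fewer samples. Between hybrids and Mo17, 0 passed with the floor at the 40th percentile and 0 with no filter. Over all probe sets, the counts passing as deposited were 2846 in place of 4561 (parents), 1351 in place of 2139 (hybrids against B73), 1219 in place of 2837 (hybrids against Mo17), 87 in place of 144 (midparent) and 6 in place of 0 (between hybrids). The midparent count was 388 with the higher floor, 67 with no filter, 806 with a log2 midparent and as low as 69 with 1 array left out; that between hybrids was 2 with no filter and at most 2 with 1 array left out. The cause of each change was not tested.

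With the replicate number as a block, 2 passed between the parents (bd1, adjusted p = 0.0457 in limma, and zfl1), 1 between hybrids and B73, and 2 between hybrids and Mo17 (fea2, adjusted p = 0.0458, and zfl1). Same-numbered arrays of different genotypes correlated from -0.09 to 0.46 in their deviations from the genotype means, with a median of 0.15 against -0.06 for other numbers, and 10 of 12 arrays correlated best with an array of their own number. Since the labels do not say what a number marks and not every same-numbered pair correlated above 0.1, the fit without the block was kept; the correlations are a hint of pairing from the data, not from the design.

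With 1 array left out at a time, the counts passing were 0 to 3 between the parents, 0 (without B73 replicate 3) to 2 (without Mo17 replicate 1) between hybrids and B73, and 0 (without Mo17 replicate 3) to 1 between hybrids and Mo17. The share of all probe sets passing was then 36.7% to 41.3% between the parents. It was 14.4% to 21.7% between hybrids and B73 and 20.7% to 28.3% between hybrids and Mo17. Differences whose sign turned ran from -0.24 to 0.30 for BA1 between the parents, from -0.038 to 0.21 for bd1 against the midparent, from -0.31 to 0.093 for bd1 and -0.12 to 0.20 for ids1 between the hybrids, and, against Mo17, from -0.079 to 0.084 for ids1, -0.046 to 0.13 for ub2 and -0.047 to 0.49 for BA1. Counts of 0 against the midparent and between the reciprocal hybrids held under every alternative run. No probe set was at the floor used, but bd1 and Zm.6788.1.A1_at are dim (median percentiles 39.2 and 40.8), and with the floor at the 40th percentile bd1 went from -0.69 to -0.15 between the parents and Zm.6788.1.A1_at from 0.65 to 0.31 between hybrids and Mo17.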
